A study of Mus musculus with 17 samples.

Results

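The vacuolar H+-ATPase (V-ATPase), the proton pump that acidifies lysosomes, and a set of lysosomal genes were followed in alveolar type 2 (AT2) cells, the surfactant-making cells of the lung alveolus. The set held 35 genes of the 43430 gene identifiers in each count table, and all 35 were found by matching their symbols to those identifiers. It comprised 10 genes of the cytosolic V1 sector, 8 of the membrane V0 sector, 2 accessory subunits, 3 lysosomal membrane proteins, 2 transcription factors, 8 cathepsins and 2 glycosidases. The set was chosen partly on measured values, because Atp6v1c2 was low after bleomycin. All bleomycin values of these genes are therefore given as a description, with no test.

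The study held 17 RNA libraries of flow-sorted AT2 cells from C57BL/6J mice aged 2 months. In the first experiment 4 vehicle and 4 ISRIB libraries were made from 3 ng of RNA after poly(A) selection, 24 h after the drug. ISRIB is a small molecule that blunts the integrated stress response by acting on the translation initiation factor eIF2B. In the second experiment 4 naive and 5 bleomycin libraries were made from 0.35 ng of RNA with a total-RNA kit, 14 days after bleomycin, a drug used to injure the lung. The titles of the vehicle libraries and of all 9 libraries of the second experiment also carry the word saline, so that naive and bleomycin libraries share that entry. The labels give no dose, no promoter or transgene, and do not say whether each library came from its own mouse, so p-values measure only the spread between libraries. The experiments differ in kit, input and depth, and each comparison was made within its own kit.

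Total counts ran from 10493574 to 15727139 per poly(A) library and from 3295257 to 6333166 per total-RNA library. Libraries varied more in the second experiment, with a biological coefficient of variation of 21.1% against 7.66% in the first. The summed level of 10 AT2 markers was 177100 to 189600 CPM, which are counts scaled to the library's total, in the poly(A) libraries, 80770 to 88180 CPM in naive libraries and 50420 to 88710 CPM in bleomycin libraries. Bleomycin libraries held 13940 to 17112 detected genes against 17108 to 19763 in naive libraries. The markers of other cell types are given below beside the bleomycin results.

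The V-ATPase couples ATP hydrolysis in V1 to proton transport through V0, and the low pH it creates is needed by the cathepsins and glycosidases. Several subunits exist as paralogs used in different tissues or organelles. TFEB and TFE3 are transcription factors that bind promoters of lysosomal genes at a motif whose core is CACGTG. In AT2 cells the lamellar bodies that store surfactant are acidic lysosome-related organelles, in which cathepsin H and napsin A process surfactant proteins.

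Promoter sequences of 5 of the 6 members that hold the longer form of this motif are shown, because these genes share this sequence feature. The motif is itself tied to lysosomal genes, so its share in this lysosomal set is given only as a description. RefSeq promoter windows, from 250 bases before to 50 bases after the start, were found for 27 of the 35 members (GRCm38.p6). CACGTG, which reads the same on both strands, stood in the windows of 10 of these 27 genes (37.0%) and of 8.09% of all 27025 genes with a window. GTCACGTG, searched on both strands and containing the shorter motif, stood in 6 of 27 (22.2%) against 2.55% of all genes: Atp6v0b, Atp6v0d1, Ctsa, Ctsd, Lamp1 and Mcoln1. Capitals mark GTCACGTG or its reverse complement, 5′ to 3′ on the gene's own strand. The match in Atp6v0b begins 38 bases before the RefSeq start (chr4:117887340-117887387, minus strand), that in Lamp1 28 bases before (chr8:13159113-13159160, plus strand) and the one shown for Ctsd 245 bases before (chr7:142388045-142388077, minus strand). All 3 stretches lie between genes in GENCODE M21. The one shown for Ctsa begins 14 bases before the RefSeq start (chr2:164833748-164833772, plus strand) and lies in an exon of other Ctsa transcripts. The one shown for Mcoln1 begins 73 bases before the RefSeq start (chr8:3500435-3500464, plus strand), on a stretch that overlaps an exon of another Mcoln1 transcript. The match in Atp6v0d1 runs across the start and is not shown.
Atp6v0b: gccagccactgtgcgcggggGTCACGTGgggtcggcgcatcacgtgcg
Lamp1: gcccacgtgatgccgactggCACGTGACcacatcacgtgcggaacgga
Ctsd: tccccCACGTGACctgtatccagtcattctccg
Ctsa: atgagcaaactGTCACGTGatgcag
Mcoln1: gggtcgcgcttGTCACGTGttcagttcagg

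Atp6v1c2, the member with the largest bleomycin difference, had neither motif in its window. Its gene spans chr12:17284721-17329359 on the minus strand, and the 250 bases before its RefSeq start (chr12:17324731-17324980) lie in an intron of a longer Atp6v1c2 transcript. They are shown in lower case throughout.
Atp6v1c2: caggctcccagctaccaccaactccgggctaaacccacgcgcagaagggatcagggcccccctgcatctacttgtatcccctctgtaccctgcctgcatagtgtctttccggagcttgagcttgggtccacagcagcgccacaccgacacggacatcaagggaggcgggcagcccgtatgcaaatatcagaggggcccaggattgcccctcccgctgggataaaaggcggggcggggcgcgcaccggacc

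Levels of different genes were compared as CPM per kilobase of exon. The exon length was the union over all annotated transcripts of a gene, so exons not used in these cells lower its value. In vehicle libraries Lamp1, an abundant glycoprotein of the lysosomal membrane, had the highest level of the 35 genes (277 ± 3.6 CPM per kilobase, SD, n = 4), followed by Ctsc and Ctsh. Ctsc encodes dipeptidyl peptidase I, which activates other proteases. In naive libraries the same 3 genes led, with Ctsh at 122, Ctsc at 121 and Lamp1 at 121 CPM per kilobase, and their ranges overlapped. The factors Tfeb and Tfe3 and the calcium channel gene Mcoln1 were the lowest of the genes above 10 counts in every library, at 1.69 to 3.61 CPM per kilobase in vehicle libraries.

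Transcripts of the V0 and V1 subunit genes, paralogs included, were not present at one level per kilobase. Among 15 V0 and V1 subunits with over 10 counts in every vehicle library, the level per kilobase ran from 6.47 for Atp6v0a2 to 115 for Atp6v1g1, a ratio of 17.7. In naive libraries it ran from 5.34 for Atp6v1c1 to 106 for Atp6v1c2, a ratio of 19.8. Atp6v1c1 and Atp6v1c2 are alternative forms of the C subunit, and Atp6v0a2 is the minor form of its pair. Both ratios therefore include differences between paralogs. Atp6v1c2, which encodes a tissue-restricted form of the C subunit that links V1 to V0, ranked 8 of 35 in vehicle and 4 of 35 in naive libraries. Of the 34 neighbouring pairs in each order, 16 in vehicle and 26 in naive libraries had overlapping ranges, so that those neighbours did not differ beyond their spread.

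**Figure D1:**
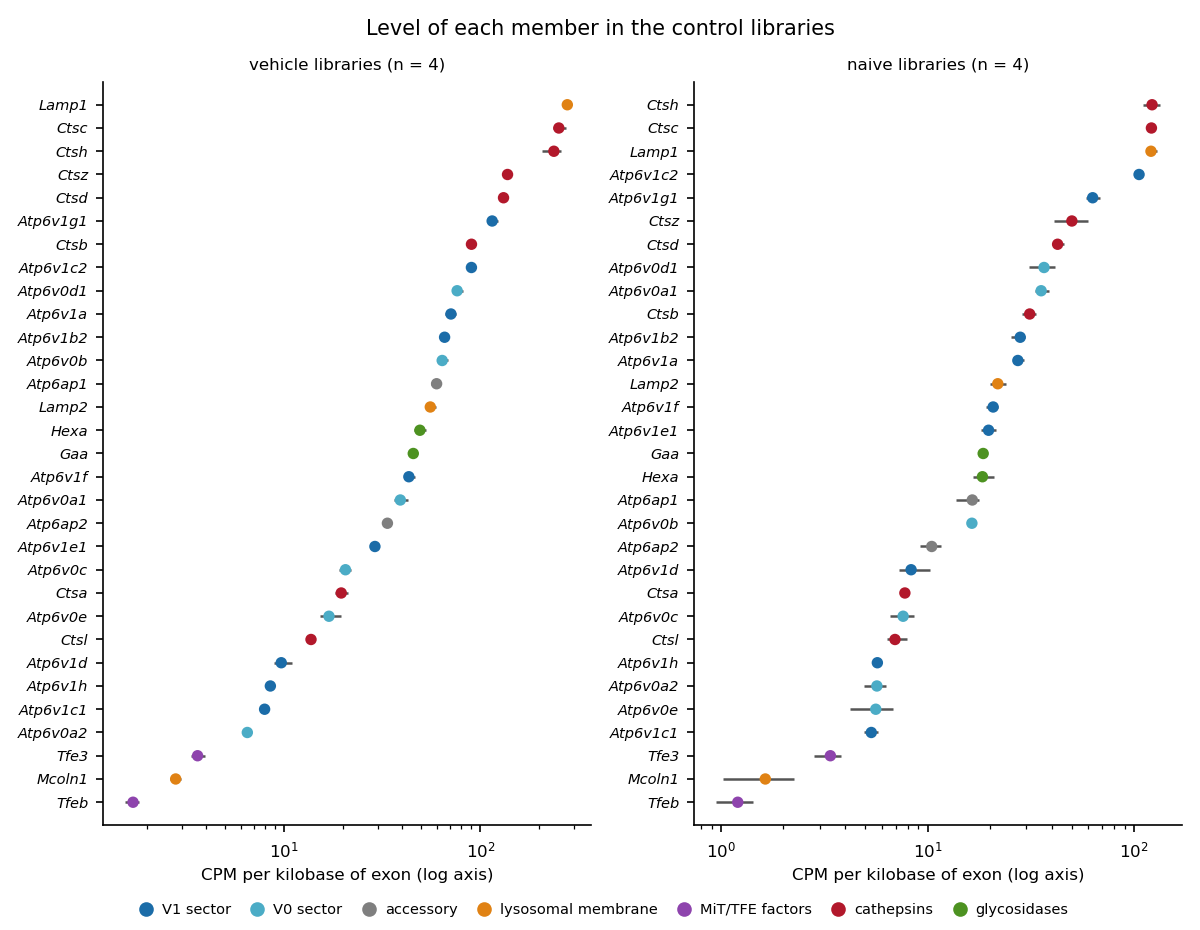
Mean level of each member with over 10 counts in every library of the group, in CPM per kilobase of exon on a log axis, in the 4 vehicle and the 4 naive libraries. Bars span the lowest to the highest library and colours give the gene group. Lamp1, Ctsc and Ctsh stand highest in both panels and Tfeb lowest.

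The transcripts of each pair of paralogs stood at very unequal levels per kilobase. Atp6v0a1 made up 85.7% ± 0.84 (SD, n = 4) of the summed level per kilobase of Atp6v0a1 and Atp6v0a2, membrane subunits of the proton path, in vehicle libraries and 86.2% ± 1.7 in naive libraries. Atp6v0d1, the widely expressed d subunit, made up 99.8% of its pair in vehicle and 99.1% in naive libraries, and Atp6v0e 98.5% and 95.5% of its own. The pair of B subunits was almost wholly Atp6v1b2, with Atp6v1b1, known from kidney intercalated cells, at 0.0376% in vehicle and 0.237% in naive libraries. Among C subunits Atp6v1c1, the widely expressed form, was the minor one, at 8.11% ± 0.38 in vehicle and 4.83% ± 0.49 in naive libraries. The exon length used was 5601 bases for Atp6v1c1 and 2174 bases for Atp6v1c2.

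The low forms of 3 paralog pairs, and Ctss, carried almost no counts. Atp6v1b1 had 1, 3, 1 and 0 counts in vehicle libraries 1 to 4, 8, 1, 10 and 2 in ISRIB libraries, 0, 0, 2 and 2 in naive libraries and 0 in all 5 bleomycin libraries. Atp6v0d2, a d subunit known from osteoclasts and macrophages, had 4, 6, 8 and 5 counts in vehicle, 7, 8, 4 and 13 in ISRIB, 2, 9, 0 and 4 in naive and 14, 32, 10, 0 and 11 in bleomycin libraries. Atp6v0e2 had 7, 7, 4 and 11 counts in vehicle, 16, 14, 9 and 11 in ISRIB, 1, 1, 3 and 3 in naive and 6, 11, 5, 0 and 14 in bleomycin libraries. The groups of these 3 genes overlapped in both comparisons, and bleomycin 4 had 0 counts for each. Ctss, a cathepsin known from antigen-presenting cells, had 3 to 7 counts in vehicle, 2 in each ISRIB library, 0 to 2 in naive and 0 to 10 in bleomycin libraries. None of these 4 was above the count filter in both comparisons, and only Atp6v0e2 was tested, after ISRIB.

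After ISRIB, none of the members passed the test. Of the 35 genes, 32 were above the count filter, and 0 were called by edgeR's quasi-likelihood test with Benjamini-Hochberg adjustment over 12054 genes (adjusted p under 0.05), against 2.2% of all genes tested. DESeq2 and limma-voom also called 0. At an unadjusted p under 0.05 stood 4 of 32 members by edgeR (Ctsz, Atp6ap1, Atp6v1c2 and Ctsl), against 16% of all genes, and 5 by each of DESeq2 and limma-voom. Vehicle and ISRIB libraries did not overlap for 2 of 32 members, Atp6v1c2 and Ctsl (6.25%), against 8.65% of all genes. The count of all genes called, 265, fell to 86 without vehicle 1, 102 without vehicle 2 and 159 without ISRIB 4, while the members' count was 0 in each of these. The plot of the 4 members by library shows how small these differences were beside the levels.

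**Figure D2:**
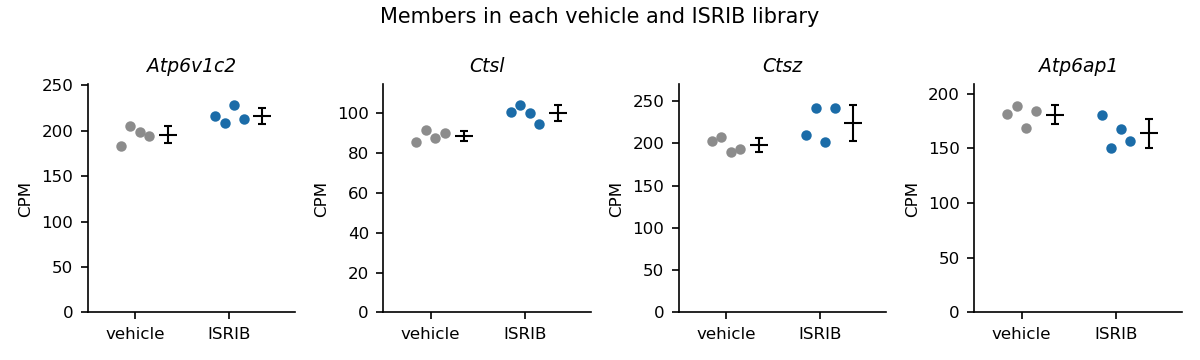
CPM of Atp6v1c2, Ctsl, Ctsz and Atp6ap1 in each vehicle and ISRIB library (points), with the mean and SD of each group beside them. The axis of each panel starts at 0, and the groups of Ctsz and Atp6ap1 overlap while those of Atp6v1c2 and Ctsl do not.

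Atp6v1c2 stood at 184, 205, 199 and 194 CPM in vehicle libraries 1 to 4 and at 217, 208, 228 and 213 CPM in ISRIB libraries 1 to 4. All ISRIB libraries were above all vehicle libraries, by a narrow margin. The log2 fold change was 0.15 with an SE of 0.05 and a 95% interval of 0.036 to 0.26 (edgeR, adjusted p = 0.170). Ctsl, the endopeptidase cathepsin L, stood at 85.7, 91.6, 87.5 and 90.1 CPM in vehicle and at 101, 104, 100.4 and 94.6 CPM in ISRIB libraries. Its groups likewise did not overlap, with a log2 fold change of 0.17 (SE 0.05) and an adjusted p of 0.102 by edgeR. Of its 6489 exon bases, 1742 overlap a gene on the other strand, Gm47123, and 395 a gene on its own strand, Gm49230. Whether counting used strand is not stated, so reads of these stretches cannot be told apart.

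Ctsz, a carboxypeptidase, stood at 203, 207, 189.8 and 193 CPM in vehicle and at 210.2, 242, 201 and 242 CPM in ISRIB libraries. ISRIB 2 and ISRIB 4 were high, ISRIB 3 lay within the vehicle range and ISRIB 1 just above it, and the log2 fold change was 0.18 (SE 0.06; edgeR, adjusted p = 0.176). Atp6ap1, an accessory subunit needed for assembly of V0, stood at 181, 189, 169 and 185 CPM in vehicle and at 181, 150.3, 168 and 157 CPM in ISRIB libraries. The groups overlapped, with a log2 fold change of -0.14 (SE 0.06; edgeR, adjusted p = 0.271).

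Ctsb, the protease cathepsin B, stood at 561, 535, 524 and 559 CPM in vehicle and at 584, 596, 555 and 607 CPM in ISRIB libraries, and the groups overlapped. Ctsa, a carboxypeptidase that also protects lysosomal galactosidase and neuraminidase, stood at 85.5, 95.7, 99.5 and 87.1 CPM in vehicle and at 99.5, 103, 90.3 and 109 CPM in ISRIB libraries, again overlapping. Ctsd, the aspartic protease cathepsin D, stood at 307, 310.4, 316 and 300.3 CPM in vehicle and at 328, 303, 312 and 310.2 CPM in ISRIB libraries. These 3 cathepsins had log2 fold changes of 0.10, 0.12 and 0.02, with adjusted p-values of 0.320, 0.385 and 0.874 by edgeR.

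Tfeb stood at 9.64, 9.68, 10.3 and 8.73 CPM in vehicle and at 11.2, 12.1, 11.7 and 9.56 CPM in ISRIB libraries. The ISRIB library with the lowest value lay within the vehicle range, and the log2 fold change was 0.21 (SE 0.11; edgeR, adjusted p = 0.379). Atp6v0b, a proteolipid of the proton-carrying ring, stood at 129, 129, 126 and 139 CPM in vehicle and at 131, 126, 130.0 and 127 CPM in ISRIB libraries. Atp6v1b2, the B subunit of the catalytic head, stood at 344, 336, 363 and 349 CPM in vehicle and at 366, 323, 353 and 346 CPM in ISRIB libraries. For both subunits the groups overlapped fully, with log2 fold changes of -0.025 (SE 0.051) and -0.0063 (SE 0.052).

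The other members lay within the same narrow band. The 95% interval of the log2 fold change was -0.27 to -0.0099 for Atp6ap1 at the low end and 0.041 to 0.31 for Ctsz among the higher members. The largest value was that of Atp6v0e2, a log2 fold change of 0.67 at 4 to 16 counts per library, with a 95% interval from -0.19 to 1.53 that covers 0. The median log2 fold change was 0.031 in the V1 sector (9 genes), -0.030 in V0 (7), 0.043 in the lysosomal membrane genes (3) and 0.10 in the cathepsins (7). It was 0.033 over all 32 members, with 19 above and 13 below 0, and -0.00014 over all genes. The lysosomal membrane median was 0.073 without vehicle 4 and 0.087 without ISRIB 4. The sign of the V0 median and of 9 members changed when single libraries were left out, so no direction is read from them.

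The ratio of paralogs within a library, which does not depend on scaling between libraries, was tested by an exact two-sided permutation test over libraries, whose smallest possible p with 4 against 4 libraries is 0.0286. After adjustment over the 5 pairs, a single pair cannot go below 0.143, so that the test could hardly pass at this size, and none passed. The log2 ratio of Atp6v1c1 to Atp6v1c2 was -3.50 in vehicle and -3.58 in ISRIB libraries (exact permutation p = 0.286, adjusted 0.429). The largest log2 difference with over 3 counts in every library was in Atp6v0e over Atp6v0e2, at 6.02 in vehicle and 5.28 in ISRIB libraries (exact permutation p = 0.0571, adjusted 0.286), where Atp6v0e2 had 4 to 16 counts.

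Atp6v1c1 stood at 42.3, 44.0, 44.4 and 47.0 CPM in vehicle and at 43.8, 42.3, 52.9 and 47.8 CPM in ISRIB libraries. Atp6v0a1 stood at 244, 281, 238 and 260.0 CPM in vehicle and at 242, 261, 259 and 239.7 CPM in ISRIB libraries. Atp6v0a2 stood at 42.7, 43.2, 42.8 and 45.4 CPM in vehicle and at 40.2, 37.6, 41.1 and 43.7 CPM in ISRIB libraries. The groups of each of these 3 subunits overlapped. Atp6v0d1 stood at 140.4, 130.1, 129.7 and 145 CPM in vehicle and at 132, 123, 136 and 137 CPM in ISRIB libraries. Atp6v0e, a small membrane subunit, stood at 60.6, 56.3, 61.3 and 72.6 CPM in vehicle and at 60.0, 59.9, 63.8 and 61.5 CPM in ISRIB libraries. Both overlapped as well, and vehicle 4 was the highest of the Atp6v0e libraries.

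After bleomycin, 5 of the 8 cathepsins, the subunits Atp6v1d, Atp6v0d1 and Atp6ap2 and the membrane gene Lamp1 stood higher, and the V1 subunit Atp6v1c2 stood lower. The contrast entered the choice of the set, so what follows is a description. Of 31 members above the count filter, 9 were past the threshold as higher, where 11.2% of all 11223 genes tested were, and 1 as lower, where 9.31% were. The libraries of the groups did not overlap for 9 of 31 members, where 19.7% of all genes did not. The 9 higher members were Ctsz, Ctsb, Ctsa, Ctsd, Ctsh, Atp6v1d, Atp6v0d1, Atp6ap2 and Lamp1, and the lower one was Atp6v1c2. Leaving out naive 1, naive 3, naive 4 or bleomycin 3 in turn took Ctsh below it, and leaving out naive 1, naive 3, naive 4, bleomycin 3 or bleomycin 5 took Lamp1 below it. Atp6ap2 was lost without any one of the 4 naive libraries or of bleomycin 2, 4 and 5.

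**Figure D3:**
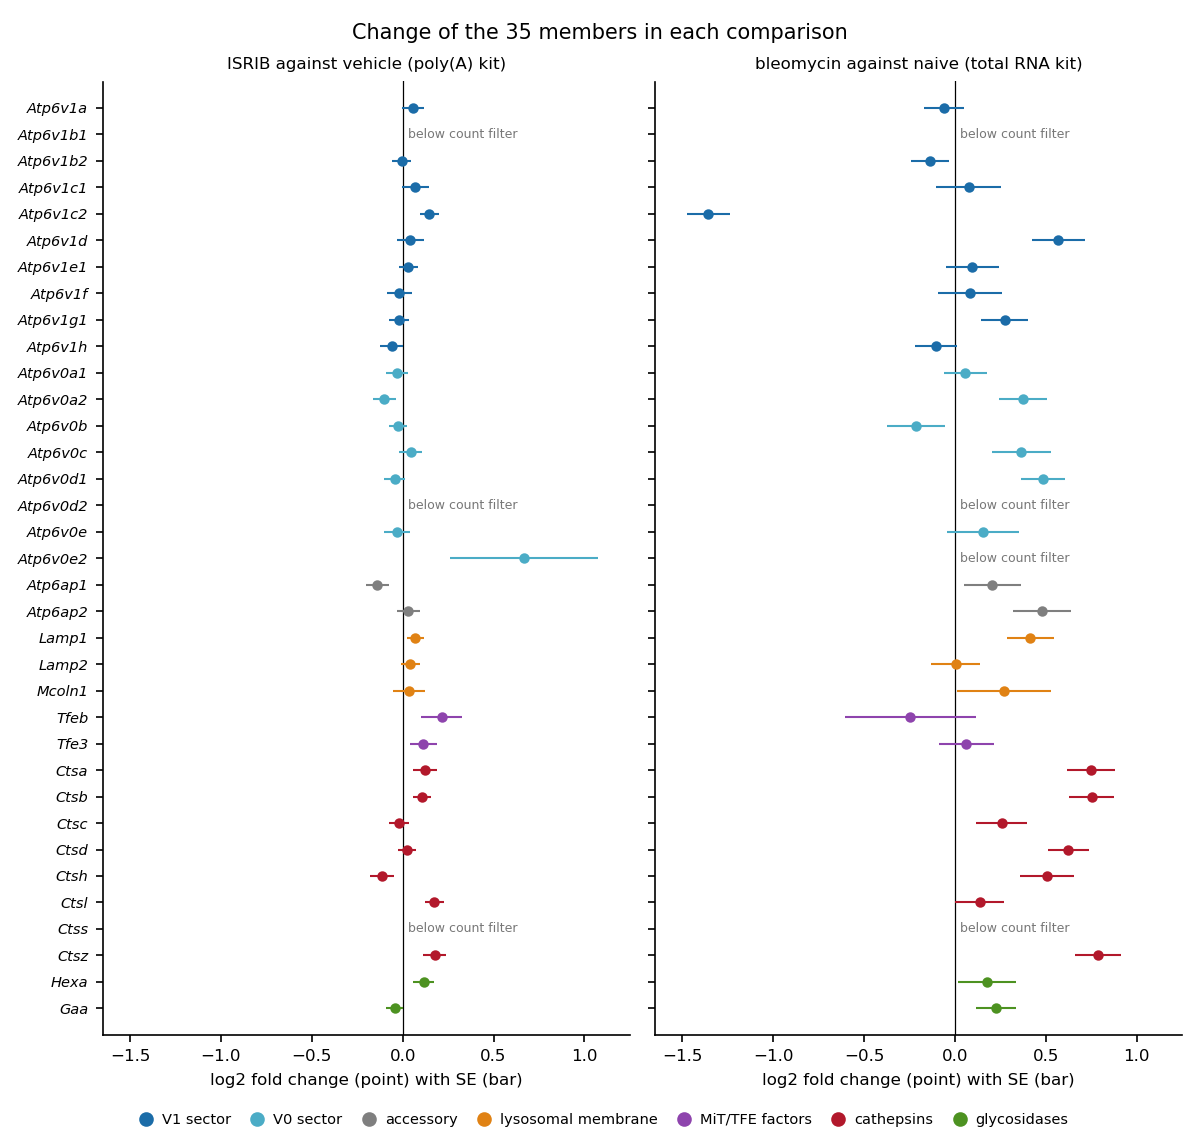
Log2 fold change (points) and standard error (bars) of the 35 members, coloured by gene group, after ISRIB (left, 4 against 4 libraries) and after bleomycin (right, 5 against 4 libraries), on the same axis. The ISRIB points sit near 0 apart from Atp6v0e2, while after bleomycin the 7 measured cathepsins lie to the right and Atp6v1c2 lies alone at -1.36. Members under the count filter are marked as such.

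Within V1, Atp6v1c2 stood at 234, 227, 216 and 241 CPM in naive libraries 1 to 4 and at 88.9, 78.5, 110.1, 81.7 and 88.5 CPM in bleomycin libraries 1 to 5. Every bleomycin library was below every naive library, and the bleomycin mean was 39.0% of the naive mean. The log2 fold change was -1.36 (SE 0.12), and over 16 other settings it lay between -1.44 and -1.31. Of its 2174 exon bases, 50 overlap Pdia6 on the other strand. Its level per kilobase went from 106 CPM in naive to 41.2 CPM in bleomycin libraries, a place from 4 to 9 among the 35 members. In bulk libraries such as these, fewer cells of a type and less RNA per cell cannot be told apart.

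The other C subunit did not show this difference. Atp6v1c1 stood at 30.5, 29.3, 32.1 and 27.7 CPM in naive and at 28.6, 37.2, 40.3, 21.7 and 28.7 CPM in bleomycin libraries, with both the lowest and the highest library in the bleomycin group. Its share of the 2 C subunits per kilobase was 4.82%, 4.76%, 5.45% and 4.27% in naive and 11.1%, 15.5%, 12.4%, 9.33% and 11.2% in bleomycin libraries. The groups did not overlap, and the log2 ratio of Atp6v1c1 to Atp6v1c2 was 1.40 higher in bleomycin than in naive libraries. Atp6v1c2 was the more abundant form in every library of the study.

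**Figure D4:**
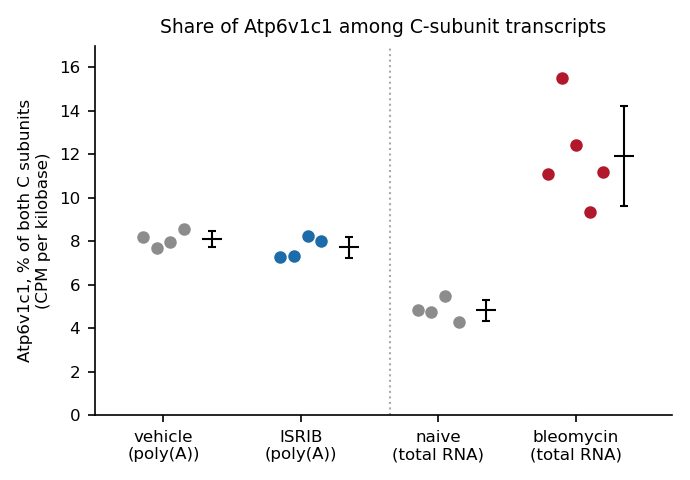
Share of Atp6v1c1 in the summed level per kilobase of Atp6v1c1 and Atp6v1c2, in percent, for each library (points) with the mean and SD of each group. The vehicle and ISRIB shares lie between 7.28% and 8.57%, naive shares between 4.27% and 5.45% and bleomycin shares between 9.33% and 15.5%; the dotted line separates the kits, which are not compared.

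Atp6v1d, a subunit of the central rotor stalk, stood at 36.2, 33.5, 36.3 and 47.1 CPM in naive and at 54.2, 68.6, 55.0, 58.8 and 47.5 CPM in bleomycin libraries. The groups did not overlap, though bleomycin 5 was close to naive 4, and the log2 fold change was 0.57 (SE 0.15). Atp6v1b2 stood at 134, 157, 154 and 151 CPM in naive and at 124, 132, 146, 137 and 138 CPM in bleomycin libraries, which overlapped, with a log2 fold change of -0.14 (SE 0.10). Atp6v1a, the subunit that binds ATP, had a log2 fold change of -0.062 (SE 0.11). The 9 measured V1 genes had a median of 0.076, with 5 above and 4 below 0, and the median lay between -0.025 and 0.11 over the other settings.

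In V0, Atp6v0d1, the subunit that seats the rotor on the ring, stood at 70.4, 74.1, 55.2 and 62.9 CPM in naive and at 80.9, 92.9, 96.6, 95.3 and 94.9 CPM in bleomycin libraries. The groups did not overlap, bleomycin 1 was the lowest of its group, and the log2 fold change was 0.49 (SE 0.12). Atp6v0a2 stood at 36.9, 33.1, 42.3 and 40.5 CPM in naive and at 46.0, 47.8, 50.2, 55.1 and 48.6 CPM in bleomycin libraries. Its groups did not overlap either, with a log2 fold change of 0.38 (SE 0.13), but it was not among the genes past the threshold. Of its 6726 exon bases, 663 overlap a gene on the other strand.

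Atp6v0a1, the major one of its pair with Atp6v0a2, stood at 225, 237, 216 and 252 CPM in naive and at 292, 254, 211, 237 and 217 CPM in bleomycin libraries. The groups overlapped, and Atp6v0a1 made up 83.2% ± 2.3 of its pair in bleomycin libraries (SD, n = 5) against 86.2% ± 1.7 in naive libraries, with overlapping ranges. Atp6v0b stood at 35.2, 34.6, 32.4 and 32.2 CPM in naive and at 23.3, 27.2, 32.1, 25.7 and 35.8 CPM in bleomycin libraries. Bleomycin 5 was above all naive libraries and the other bleomycin libraries were below them, and the log2 fold change was -0.21 (SE 0.16). Atp6v0e stood at 20.5, 25.2, 15.6 and 22.1 CPM in naive and at 15.6, 24.2, 26.0, 26.6 and 23.8 CPM in bleomycin libraries, overlapping. Atp6v0c, the other proteolipid of the ring, had a log2 fold change of 0.37 (SE 0.16), and 2 processed pseudogenes, which may share reads with it, are annotated on chromosomes 6 and 7. The median of 6 measured V0 genes was 0.26, with 5 above and 1 below 0, and it was 0.17 without naive 3.

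Of the accessory subunits, Atp6ap2, also called the prorenin receptor, had a log2 fold change of 0.48 (SE 0.16) with no overlap between groups, and Atp6ap1 one of 0.21 (SE 0.16) with overlap. Lamp1 stood at 319, 346, 310.2 and 316 CPM in naive and at 305.0, 452, 467, 453 and 476 CPM in bleomycin libraries. Bleomycin 1 lay below all naive libraries and the other bleomycin libraries above them, with a log2 fold change of 0.42 (SE 0.13). Lamp2, the second abundant membrane glycoprotein, had one of 0.0040 (SE 0.14), of a sign that changed between settings. Mcoln1 had a log2 fold change of 0.27 (SE 0.26).

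Tfeb stood at 6.37, 7.48, 8.11 and 5.36 CPM in naive and at 7.94, 4.15, 3.25, 8.97 and 5.23 CPM in bleomycin libraries, on 18 to 35 counts per library. The groups overlapped, and the log2 fold change was -0.25 (SE 0.36). Tfe3 had a log2 fold change of 0.062 (SE 0.15). The ranges of the groups overlapped for both factors.

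The cathepsins held the highest values of the set. All 7 measured cathepsin genes were above 0, with a median log2 fold change of 0.62, and 5 were past the threshold. Over the 31 members the median was 0.21, with 25 above and 6 below 0, and over all genes it was 0.0026. The median of the V-ATPase subunits and accessory subunits was 0.097 (17 genes), and that of the other members 0.26 (14 genes).

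Ctsz stood at 86.5, 72.4, 70.3 and 58.7 CPM in naive and at 115, 139, 136, 111 and 119 CPM in bleomycin libraries. All bleomycin libraries were above the naive ones, and the log2 fold change was 0.79 (SE 0.13). Ctsb stood at 196, 204, 183 and 173 CPM in naive and at 251, 374, 342, 309 and 315 CPM in bleomycin libraries, with no overlap and a log2 fold change of 0.75 (SE 0.12). Of the 6051 exon bases of Ctsb, 774 overlap Fdft1 on the other strand, which stood at 90.2 CPM in naive and 70.1 CPM in bleomycin libraries. Its part in the Ctsb value was not tested.

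Ctsa stood at 38.2, 36.1, 35.7 and 36.4 CPM in naive and at 53.4, 54.3, 64.9, 68.1 and 66.8 CPM in bleomycin libraries. The naive libraries lay close together and all bleomycin libraries were above them, with a log2 fold change of 0.75 (SE 0.13). Of its 4715 exon bases, 819 overlap Pltp and Neurl2 on the other strand, and Pltp was at 2.24 CPM in naive and 10.02 CPM in bleomycin libraries, so its part in the Ctsa value was not tested. Ctsd stood at 101, 97.0, 95.5 and 107 CPM in naive and at 147, 173, 166, 131 and 154 CPM in bleomycin libraries. Its groups did not overlap, with a log2 fold change of 0.62 (SE 0.11), and 808 of its 2351 exon bases are shared with Gm49369 on the same strand.

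**Figure D5:**
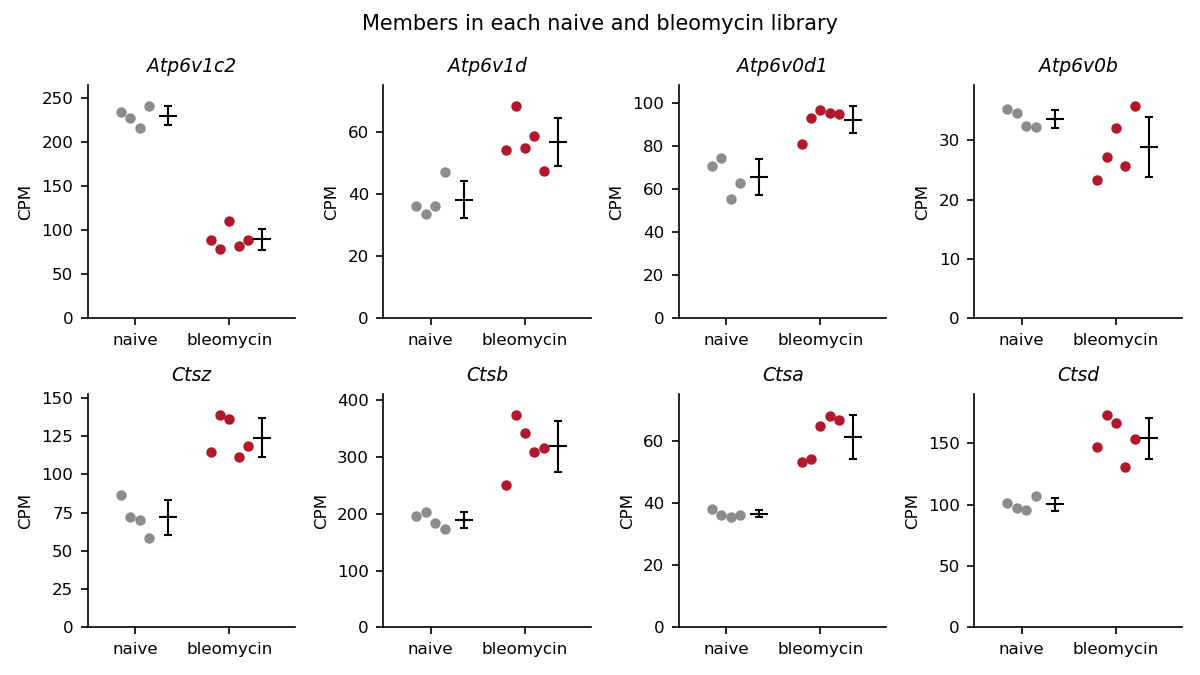
CPM in each naive and bleomycin library (points), with the mean and SD of each group beside them, of 4 V-ATPase subunits (top) and 4 cathepsins (bottom). Axes start at 0; Atp6v1c2 lies lower in all 5 bleomycin libraries, the 4 cathepsins, Atp6v1d and Atp6v0d1 lie higher in all 5, and the groups of Atp6v0b overlap.

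Ctsh, the protease that trims surfactant protein B, stood at 572, 599, 531 and 497 CPM in naive and at 655, 880.5, 975, 549 and 841 CPM in bleomycin libraries. Bleomycin 4 lay within the naive range and the others above it, with a log2 fold change of 0.51 (SE 0.15). Ctsc and Ctsl had log2 fold changes of 0.26 (SE 0.14) and 0.14 (SE 0.13) with overlapping groups. The glycosidases Hexa, a subunit of hexosaminidase, and Gaa, which degrades glycogen, had values of 0.18 (SE 0.16) and 0.23 (SE 0.11), also overlapping.

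Some lists of markers of other cells differed between naive and bleomycin libraries, while the sums of others overlapped. The summed level of 8 alveolar type 1 (AT1) markers was 1390 to 1616 CPM in naive and 2106 to 2640 CPM in bleomycin libraries, and 7 of the 8 were past the threshold as higher. The 8 fibroblast markers summed to 4.17 to 10.4 CPM in naive and 17.8 to 115.9 CPM in bleomycin libraries, with Lum at 0 in both. The highest sum was in bleomycin 2. The 3 fibroblast markers above the count filter, Col1a1, Col1a2 and Col3a1, were past the threshold as higher. The 7 endothelial markers summed to 19.4 to 27.6 and 20.4 to 75.1 CPM. Among the 5 endothelial markers above the filter, 4 had a log2 fold change above 0 and 1 below, with Vwf and Cdh5 past the threshold as higher. The 7 airway markers summed to 375.5 to 809.1 CPM in naive and 405.9 to 784.8 CPM in bleomycin libraries, with medians of 664.7 and 504.2 CPM. Of the 5 above the count filter, 4 had a log2 fold change above 0 and 1 below. Foxj1 and Ccdc39 were past the threshold as higher. The 16 macrophage and monocyte markers summed to 17.9 to 22.5 CPM in naive and 22.6 to 31.9 CPM in bleomycin libraries, without overlap. Of these 16, 3 had 0 counts in naive libraries (C1qa, Chil3 and Marco). In bleomycin libraries 8 had 0 counts (Adgre1, C1qa, C1qb, Ear2, Itgax, Marco, Siglecf and Tyrobp). The part of any of these marker lists in the member values was not tested.

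Other genes of the pathway were taken from lists of 93 genes. After ISRIB, 88 were tested and 0 were called by edgeR, with 15 at an unadjusted p under 0.05, by limma-voom 0 were called with 15, and by DESeq2 2 were called with 13. The 2 genes, picked out after their values were seen, were Npc1, the cholesterol transporter of the lysosomal membrane, and Fuca1, a fucosidase, with edgeR log2 fold changes of -0.26 (adjusted p = 0.0925) and 0.18 (adjusted p = 0.0695). After bleomycin 82 were measured, of which 15 were past the threshold as higher and 5 as lower, beside the 11.2% and 9.31% of all genes given above.

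Of the 13 measured V-ATPase isoforms and assembly factors, 2 were past the threshold as higher and 2 as lower. The lower ones were Dmxl2 and Atp6v1g2, the latter with a log2 fold change of -1.49 at a mean below 5 CPM. Atp6v0a4, an a subunit known from kidney and epididymis, stood at 3.28 to 8.33 CPM in naive and 9.29 to 29.2 CPM in bleomycin libraries. The groups did not overlap, and the log2 fold change was 1.76 (SE 0.34). Rogdi, a subunit of the RAVE-like complex that joins V1 to V0, went from 20.1 to 28.1 CPM, and Dmxl2 of the same complex from 20.5 to 12.4 CPM. These 2 assembly factors thus stood on opposite sides, with log2 fold changes of 0.49 (SE 0.17) and -0.72 (SE 0.22).

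Of 32 other hydrolases and activators, 6 were past the threshold as higher and 1 as lower. The largest were Galc, which degrades galactosylceramide (log2 fold change 0.59, SE 0.13), Smpd1, the acid sphingomyelinase (0.58, SE 0.15), and Psap, the precursor of the saposins that present lipids to these enzymes (0.54, SE 0.18). The lower one was Dnase2a, the acid nuclease, at 33.4 CPM in naive and 19.5 CPM in bleomycin libraries. Over the 32 genes the log2 fold changes ran from -0.80 to 0.74, with 25 above and 7 below 0.

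Of 23 membrane and sorting genes, 5 were past the threshold as higher and 1 as lower. Gnptab, the enzyme that starts the mannose 6-phosphate tag by which hydrolases are sorted, stood at 148 to 163 CPM in naive and 228 to 289 CPM in bleomycin libraries, with a log2 fold change of 0.72 (SE 0.11). Scarb2, the receptor that carries glucocerebrosidase, and Grn, the progranulin precursor, had values of 0.56 (SE 0.11) and 0.55 (SE 0.14). Npc1 was the lower one, at 347 to 372 CPM in naive and 169 to 301 CPM in bleomycin libraries, with a log2 fold change of -0.50 (SE 0.14).

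Of 14 genes of nutrient sensing at the lysosome, Rragd, a Rag GTPase, stood at 30.5 to 37.2 CPM in naive and 54.0 to 80.1 CPM in bleomycin libraries, with a log2 fold change of 0.95 (SE 0.14). Flcn, which encodes folliculin, the protein that stimulates GTP hydrolysis by the Rag GTPases C and D, stood at 65.2 to 71.8 CPM in naive and 27.4 to 37.8 CPM in bleomycin libraries, with a log2 fold change of -1.001 (SE 0.13). The groups of neither gene overlapped. Lamtor3, a subunit of the Ragulator scaffold, had a log2 fold change of 0.61 (SE 0.21).

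The comparisons share no library, and the members were set side by side. Atp6v1c2 had a log2 fold change of 0.15 after ISRIB and -1.36 after bleomycin. Ctsz had values of 0.18 and 0.79, Ctsb of 0.10 and 0.75, and Ctsa of 0.12 and 0.75. Of the 31 members measured in both, 18 (58.1%) had the same sign, as had 48.7% of 10737 genes.

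By promoter sequence, the 6 members with GTCACGTG had a median log2 fold change of 0.45 after bleomycin, with 5 above 0, and the 18 measured members with a window and no match one of 0.14, with 15 above 0. After ISRIB the medians were 0.029 and 0.043. For CACGTG the bleomycin medians were closer, at 0.25 in the 10 members with it (8 above 0) and 0.14 in the 14 measured members without (12 above 0). Members with a window and no match included Ctsz as well as Atp6v1c2, and Atp6v0b, with a match, stood at -0.21 after bleomycin. Measured members without a window were in neither group: Ctsb (0.75), Ctsh (0.51), Atp6v0a2 (0.38), Atp6v1g1 (0.27), Atp6v1c1 (0.076), Atp6v1h (-0.10) and Atp6v1b2 (-0.14). The bleomycin values, through Atp6v1c2, entered the choice of the set, so no conclusion is drawn from these medians. A match describes the letters in the window and no binding of a factor was measured here.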

How the data were processed

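RNA of sorted AT2 cells was sequenced on an Illumina NextSeq, per the labels' protocols. The authors deposited raw read counts per Ensembl gene in 2 tables, 1 per kit. Per the submitters' processing notes, bcl2fastq 2.19.1, FastQC, Trimmomatic 0.36, STAR 2.6.0 and HTSeq 0.11.2 were used with build mm10; no source used here states the strand setting or annotation. Symbols, positions and exon lengths came from GENCODE M21 (GRCm38), which names 42546 of 43430 identifiers.

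Libraries were grouped by treatment. Each kit was fitted apart with edgeR 4.0.16 in R 4.3.3: filterByExpr (minimum count 10, total 15), TMM scaling, quasi-likelihood test, two-sided, Benjamini-Hochberg over all genes tested, threshold 0.05. CPM use TMM-scaled library sizes. Paralog ratios used counts plus 0.5 per kilobase and exact permutation tests (scipy 1.17.1). DESeq2 1.42.0, limma-voom 3.58.1, other scalings, no filter, a replicate block, trends in GC content and length removed (added after seeing the data) and leaving out each library were alternatives. The members and all gene lists were chosen with earlier results of these data known. The 35 members were all accounted for; values in every library were to be given for members called after ISRIB (none was) and were given for the 4 highest and the 4 lowest after bleomycin, the paralog pairs and Atp6v1c2, and further ones chosen after their values were seen (Ctsl, Atp6ap1, Lamp1, Ctsh, Atp6v1d). Pathway genes were named if past the threshold, among the 3 largest of their list in a direction and at a mean of at least 5 CPM. Atp6v1g2, below that mean, was named in addition. Protein identity of paralogs was not computed. The procedure was tested on simulated data. No 2 libraries of a group agreed within sampling noise (chi-square per degree of freedom 3.52 to 47.3). Depth limits genes of few counts, and the intervals cover the spread between libraries.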

Additional observations from a re-analysis of the deposited data

Results flagged for a closer look

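Among 126 groups of member values checked, 5 held a library far from the others of its group, where chance flags about 1 group in 20. Bleomycin 1 was low for Lamp1 (305.0 CPM, the others 451.9 to 475.7), for Atp6v0d1 (80.94 CPM, the others 92.94 to 96.63) and for Atp6v0e (15.61 CPM, the others 23.75 to 26.61). Vehicle 2 was high for Atp6v1e1 (122.8 CPM, the others 117.3 to 118.2) and low for Atp6ap2 (83.39 CPM, the others 89.07 to 89.55).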

How the results depend on the processing

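Alternatives were 15 after ISRIB and 16 after bleomycin. The count of members called stayed 0 under all 15 after ISRIB. After bleomycin, where the members are only described, the count past the threshold went from 10 to between 7 and 12. All genes called after ISRIB went from 265 to 648 without the count filter and to between 86 and 269 when single libraries were left out (86 without vehicle 1, 102 without vehicle 2, 159 without ISRIB 4); the cause was not tested. After bleomycin they went from 2304 to between 1554 and 2589.

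Replicate numbers did not pair the libraries: correlations of same-numbered deviations ran from -0.109 to 0.0849 after ISRIB and from -0.0393 to 0.0474 after bleomycin, and 2 of 4 and 0 of 4 numbers matched best with themselves. With the replicate block 277 and 2187 genes and 0 and 8 members were past the threshold.

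Fold changes near 0 changed sign when a library was left out. After ISRIB the ranges were -0.031 to 0.027 for Atp6v1b2, -0.044 to 0.025 for Atp6v1f, -0.044 to 0.011 for Atp6v1g1, -0.065 to 0.018 for Atp6v0a1, -0.042 to 0.0028 for Atp6v0b, -0.078 to 0.041 for Atp6v0e, -0.011 to 0.083 for Atp6ap2, -0.016 to 0.090 for Mcoln1 and -0.053 to 0.019 for Ctsc. After bleomycin they were -0.025 to 0.18 for Atp6v1c1, -0.022 to 0.18 for Atp6v1e1, -0.013 to 0.11 for Atp6v0a1, -0.088 to 0.089 for Lamp2 and -0.017 to 0.12 for Tfe3. Lamp2 was at -0.012 with upper-quartile scaling, -0.0046 by limma-voom and -0.055 with the block, and Atp6v1h at 0.064 with trends in GC content and length removed. After bleomycin, as a description and not a test, some members past the threshold fell below it when single libraries were left out. These were Atp6ap2 (0.40 to 0.56), Lamp1 (0.38 to 0.52) and Ctsh (0.42 to 0.61). Atp6ap2 also fell below it by DESeq2, by limma-voom, without the count filter and with the block. Lamp1 did so with the block and with GC and length trends removed. Atp6v1g1 and Atp6v0a2 moved past the threshold without bleomycin 1, Atp6v0c without bleomycin 4 and Ctsc without bleomycin 2. Depth limits Atp6v1b1, Atp6v0d2, Atp6v0e2 and Ctss, at 32 counts or fewer per library.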
